A study of Mus musculus with 16 samples.

Results

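The TRIM family was followed through the maturation of splenic type 1 conventional dendritic cells (cDC1s). Its members were taken as every symbol that starts with Trim and a digit and is a row of the deposited log2 table, which gave 38 genes of 11843 in that table. The counts table, with 24421 symbols, held 67 symbols of this form. Of the other 29, 8 had no count in any of the 16 libraries, 18 had 1 to 20 counts over all libraries together, and the highest total was 78. All 38 members also passed the low-count filter used here, which kept 11978 genes for testing, so every member has a level and a test in what follows.

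RNA was sequenced in bulk from cDC1s sorted by flow cytometry from spleens of C57BL6 mice kept at steady state, with no agent given. There were 4 groups of 4 libraries: immature and mature cDC1s of Xbp1fl mice, in which Xbp1 is floxed, and immature and mature cDC1s of Xbp1flIre1fl mice, in which Xbp1 and the gene for IRE1 are both floxed. Neither gene had been deleted in either genotype, the submitters describe both as functionally wild type, and no Cre driver, age or sorting gate is given in the sources used here. The study concerns liver X receptor signalling in the maturation that cDC1s undergo without infection, and the present comparison asks how TRIM genes differ between its stages.

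TRIM proteins share an N-terminal tripartite motif made of a RING domain, B-box zinc fingers and a coiled coil, and most act as E3 ubiquitin ligases that pass ubiquitin from an E2 enzyme to a substrate. The C-terminal part differs between subfamilies (a SPRY domain in most, a PHD finger with a bromodomain, NHL repeats or a membrane helix in others) and chooses the substrate. Many SPRY members are induced by interferon and either restrict retroviruses or tune the RIG-I, STING and Toll-like receptor pathways by which dendritic cells sense nucleic acids, while TRIM24, TRIM28 and TRIM33 work on chromatin.

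A group of interferon-linked members lies side by side on chromosome 7, and the sequences around their start sites show what some of them share. The 300-base RefSeq promoters (build GRCm38.p6, 250 bases before to 50 after the start), which matched 29 of the 38 members by symbol, were searched on both strands for GAAA followed after 2 bases by GAAA, the core of the interferon-stimulated response element (ISRE). A match was present in 8 of the 29 members (27.59%), against 3.99% of the 27025 genes in the same table. The 100 bases from 70 before to 30 after the start are printed for the 6 of these 8 that lie on chromosome 7, on the strand of the gene, to set copies of the cluster beside each other, with Trim21 from elsewhere on that chromosome. Capitals mark the ISRE match, which reads TTTC, 2 bases, TTTC where it lies on the other strand.
Trim12a: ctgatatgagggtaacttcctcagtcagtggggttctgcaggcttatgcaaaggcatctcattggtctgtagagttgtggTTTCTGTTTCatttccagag
Trim12c: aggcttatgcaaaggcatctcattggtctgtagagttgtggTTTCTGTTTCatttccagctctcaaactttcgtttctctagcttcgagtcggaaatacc
Trim30a: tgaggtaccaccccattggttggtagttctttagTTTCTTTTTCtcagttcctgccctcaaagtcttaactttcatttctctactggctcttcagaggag
Trim30d: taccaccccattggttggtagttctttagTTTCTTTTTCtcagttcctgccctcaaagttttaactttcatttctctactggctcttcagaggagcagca
Trim34a: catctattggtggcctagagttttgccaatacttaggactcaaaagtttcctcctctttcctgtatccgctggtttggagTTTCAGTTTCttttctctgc
Trim21: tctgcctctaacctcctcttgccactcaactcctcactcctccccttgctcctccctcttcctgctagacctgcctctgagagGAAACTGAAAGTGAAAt
The windows lie at chr7:104315466-104315565 on the minus strand for Trim12a, chr7:104353320-104353419 on the minus strand for Trim12c, chr7:104465164-104465263 on the minus strand for Trim30a, chr7:104507820-104507919 on the minus strand for Trim30d, chr7:104244387-104244486 on the plus strand for Trim34a and chr7:102565453-102565552 on the minus strand for Trim21. Trim12a and Trim12c carry the same match, TTTCTGTTTC, as do Trim30a and Trim30d with TTTCTTTTTC. In Trim21 there are 2 matches that overlap, GAAACTGAAA and GAAAGTGAAA. Trim26, on chromosome 17, also holds 2 that overlap, and Trim2 holds 1. A kappaB motif was found in 3 of the 29 members (10.34%: Trim13, Trim28 and Trim7), close to the 9.55% of all genes. These matches describe letters in a window and were not tested as binding sites.

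Levels are given as CPM (counts per 1000000), the deposited count over the library total scaled by the trimmed mean of M-values (TMM). Library totals ran from 13948232 to 17000763 counts, so that 3 counts correspond to 0.161 to 0.232 CPM. Ccr7, the chemokine receptor that marks mature dendritic cells, lay between 106.9 and 320.4 CPM in the immature libraries and between 4988 and 13420 CPM in the mature ones, with the lowest mature values in Xbp1flIre1fl replicates 4 (4988 CPM) and 2 (6574 CPM). The 11 cDC1 markers summed to 6726 to 7810 CPM in immature and 5286 to 6976 CPM in mature libraries. Of these 11, 4 were higher, 4 lower and 3 did not pass. Irf8, the largest part of the sum, had means of 3603 and 2726 CPM. Of the marker lists of other cells, most had genes higher in the mature libraries. The 10 B cell markers summed to 74.8 to 132.9 CPM against 288.4 to 975.4 CPM, with all 10 higher, and the 11 macrophage markers to 151.3 to 632.1 CPM against 566.8 to 1177 CPM, with 8 higher. Among the other lists, 5 of 8 T cell, 4 of 6 plasma cell, 4 of 6 cDC2 and 2 of 6 plasmacytoid dendritic cell markers tested were higher, with summed levels of up to 96.2, 753.8, 448.0 and 366.2 CPM in the mature libraries. In these lists 1 plasma cell marker, Xbp1, and 1 plasmacytoid marker, Ccr9, were lower, and the rest did not pass. The 2 higher plasmacytoid markers were Spib and Ly6d, while Siglech, Bst2 and Tcf4 did not pass. Irf4, which was higher, is in both the plasma cell and cDC2 lists. Of all genes tested, 33.4% were called higher and 34.2% lower. NK cell markers summed to 116.5 to 164.5 CPM in immature and 61.8 to 106.3 CPM in mature libraries, with 0 of 6 higher and 1 lower. The lower one was Klrk1, with means of 116.0 and 57.7 CPM. The other 5 did not pass, and their means lay between 2.29 and 7.91 CPM in both stages. Among neutrophil markers, 0 of 6 were higher and 1 lower. No tested marker was at 0 in all libraries of a stage, and their part in the changes of TRIM genes was not tested. In bulk RNA, fewer cells of a type and less RNA per cell cannot be told apart.

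Between the stages, TRIM genes moved in both directions and mostly by little. A gene was called when its Benjamini-Hochberg adjusted p over all 11978 genes was under 0.05 in edgeR's quasi-likelihood test on the mean of both genotypes. By this rule 15 members were higher in mature cDC1s, 11 were lower and 12 did not pass. The share called, 68.4%, stands beside 67.6% of all genes tested, and the shares called higher and lower, 39.5% and 28.9%, beside 33.4% and 34.2% of all genes. The median log2 fold change was 0.09 over the members and -0.01 over all genes. The sizes were small: 17 of the 26 called members changed by less than 1.5-fold, the largest fall was 1.58-fold, and only Trim6 and Trim24 rose by more than 2-fold, with no member falling that far, where 12.3% of all genes rose and 1.45% fell by over 2-fold. The share of all called genes under 1.5-fold is not given here. Small sizes are therefore not shown to be particular to TRIM genes. With library totals in place of TMM the split of calls moved from 15 higher and 11 lower to 11 higher and 18 lower. All genes moved the same way, from 3995 higher and 4100 lower to 2716 and 6091, and their median moved to -0.23.

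**Figure D1:**
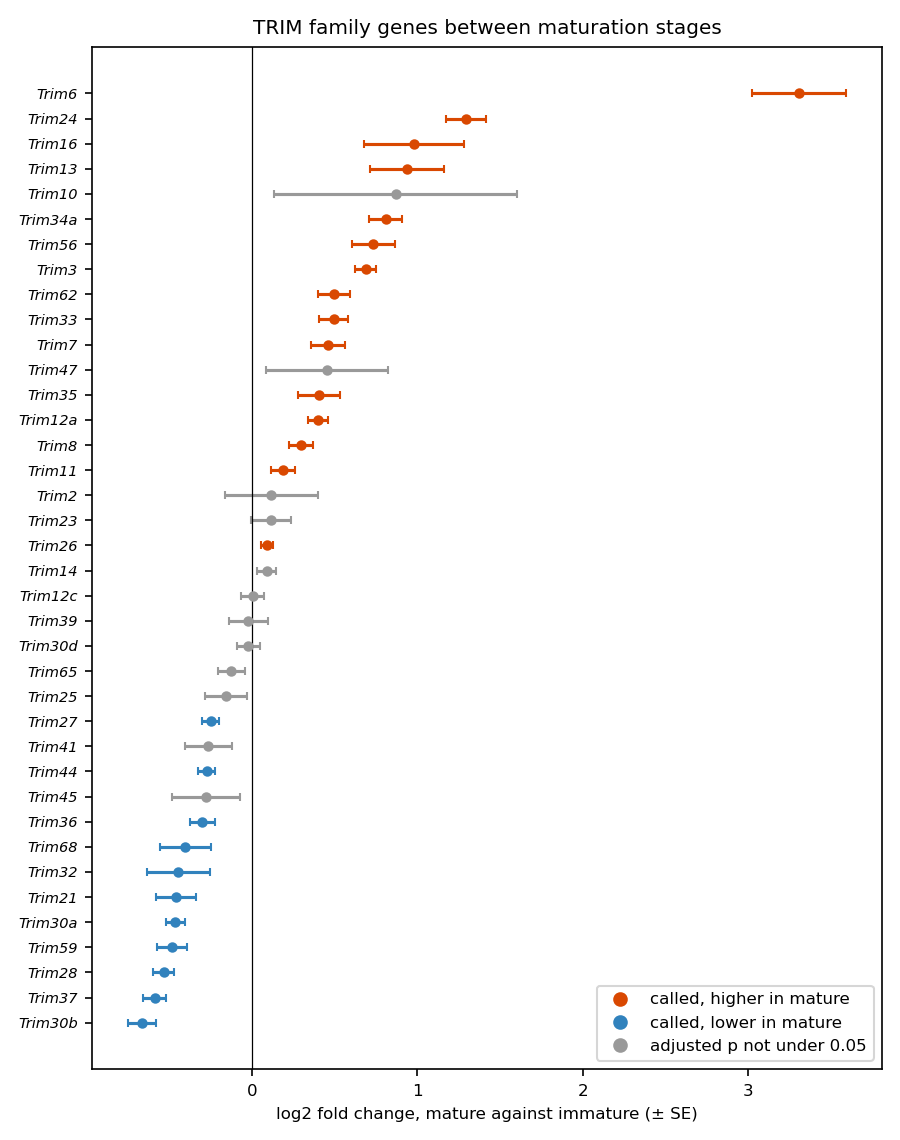
The log2 fold change of each of the 38 TRIM genes, mature against immature cDC1s (x axis, mean of both genotypes, bars are 1 SE from edgeR), ordered by size. Trim6 at 3.31 and Trim24 at 1.30 stand to the right of all the others, and the lowest is Trim30b at -0.66.

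The ranges of the 8 mature and 8 immature libraries did not overlap for 11 members (28.9%, against 33.0% of all genes). Trim6, Trim24, Trim34a, Trim3, Trim33 and Trim56 were higher in all mature libraries, and Trim30a, Trim30b, Trim28, Trim27 and Trim37 lower in all of them.

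Trim6 showed the largest change. It encodes a SPRY ligase that builds free ubiquitin chains which activate the kinase IKK-epsilon in interferon signalling, and it lies at chr7:104218793-104235152 (mm10, plus strand). In immature Xbp1fl libraries 1 to 4 it had 0.567, 0.233, 0.228 and 0.484 CPM, and in mature ones 4.76, 3.87, 6.05 and 8.40 CPM. In Xbp1flIre1fl the values were 0.869, 1.35, 0.403 and 0.558 CPM in immature and 5.80, 3.13, 8.02 and 4.22 CPM in mature libraries. Every mature library stood above every immature one, although the immature level rests on only 82 counts over 8 libraries. The log2 fold change was 3.31 (SE 0.285, a 9.91-fold rise, adjusted p = 1.47e-08 by edgeR). Even so, Trim6 remained a low-abundance member: per kilobase of exon it went from place 37 to place 30 among the 38.

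Trim24, which encodes a PHD and bromodomain protein that reads histone H3 tails and acts as a nuclear receptor cofactor, was the other member past 2-fold. It had 13.3, 13.8, 13.4 and 15.9 CPM in immature Xbp1fl libraries and 36.6, 28.1, 36.5 and 46.9 CPM in the mature ones. In Xbp1flIre1fl it had 14.7, 15.4, 16.1 and 14.5 CPM in immature and 45.4, 27.3, 41.1 and 25.5 CPM in mature libraries. The 8 immature values were close to each other while the mature ones spread widely, and the lowest mature values came from Xbp1flIre1fl replicates 4 and 2, the same libraries that were lowest in Ccr7. The rise was 2.45-fold (log2 1.30, SE 0.122, adjusted p = 6.78e-08 by edgeR). Without those 2 libraries it was 1.45 on the log2 scale. Leaving out the lowest mature values raises the change in any case, so no conclusion is drawn from this. Whether Trim24 follows Ccr7 was not tested.

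The other chromatin-bound members went separate ways. Trim28 encodes KAP1, the corepressor that KRAB zinc finger proteins use to silence retroelements. It had 134.2, 150.2, 139.5 and 147.1 CPM in immature and 97.2, 105.5, 84.8 and 95.9 CPM in mature Xbp1fl libraries. The Xbp1flIre1fl libraries had 149.0, 148.1, 139.8 and 135.1 CPM in immature and 89.4, 114.5, 88.6 and 113.9 CPM in mature libraries. All mature values lay below all immature ones, a 1.45-fold fall (log2 -0.53, SE 0.063, adjusted p = 7.71e-07 by edgeR).

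Trim33, whose product binds SMAD proteins in TGF-beta signalling, had 13.0, 19.2, 15.1 and 14.96 CPM in immature and 25.8, 22.5, 20.8 and 25.5 CPM in mature Xbp1fl libraries. Its values in Xbp1flIre1fl were 16.5, 16.9, 19.04 and 14.1 CPM in immature and 22.0, 19.2, 24.5 and 21.1 CPM in mature libraries. The stages were separated only narrowly, with 19.16 CPM as the highest immature and 19.21 CPM as the lowest mature value. Its rise was 1.41-fold (log2 0.49, SE 0.088, adjusted p = 7.79e-05 by edgeR).

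**Figure D2:**
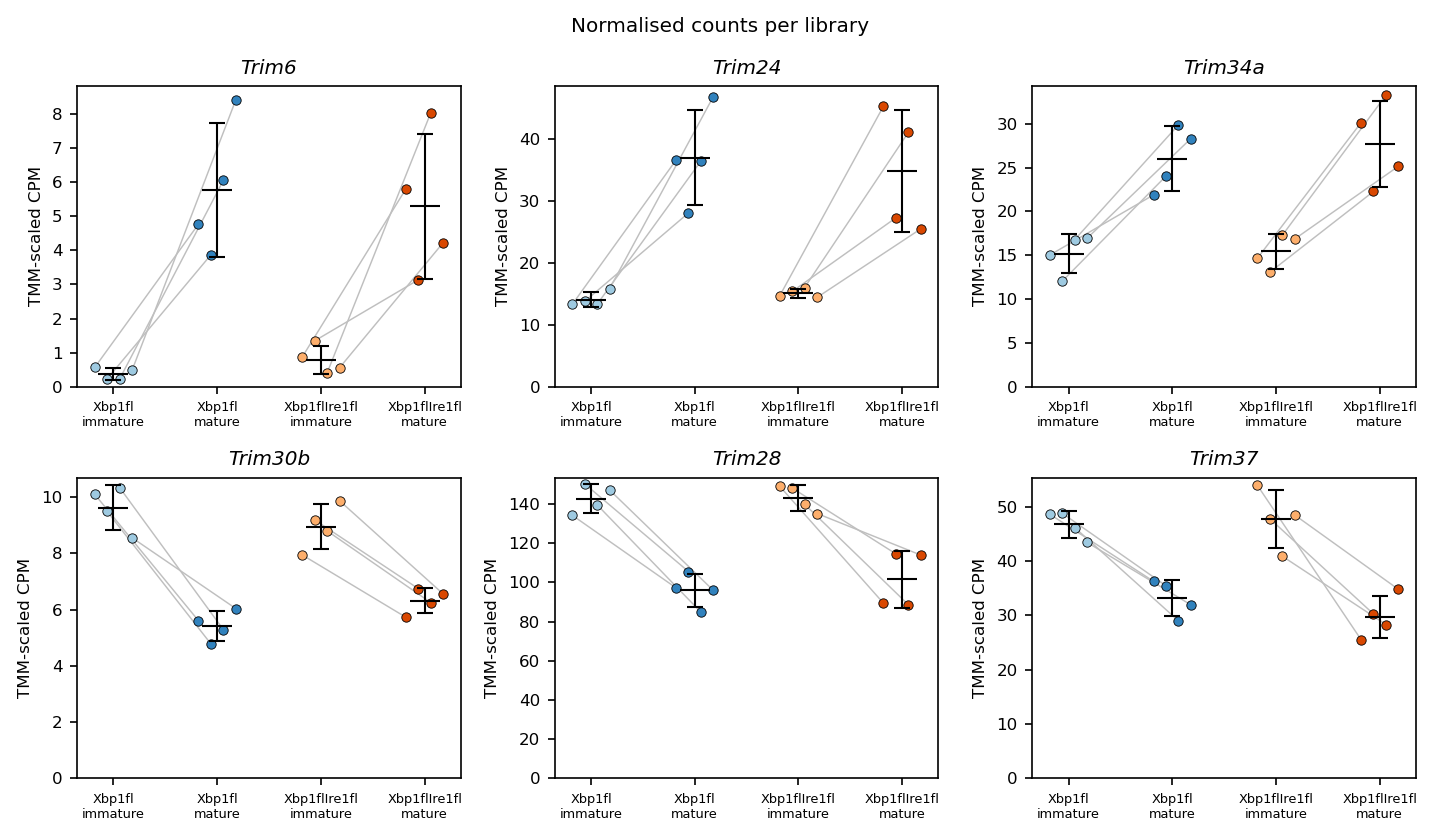
TMM-scaled CPM (y axis, from 0) of 6 TRIM genes in each of the 16 libraries by genotype and stage (x axis); black bars are the mean ± SD of 4 libraries and grey lines join the same replicate number of a genotype. Trim6, Trim24 and Trim34a are higher and Trim30b, Trim28 and Trim37 lower in every mature library.

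The chromosome 7 cluster contains 7 neighbouring members, with calls in both directions. They are SPRY ligases, among them mouse relatives of the retrovirus restriction factor TRIM5 and the Trim30 genes. Trim6, Trim34a and Trim12a were higher in mature cDC1s, Trim30a and Trim30b were lower, and Trim12c and Trim30d did not pass; the median over the 7 was 0.00 on the log2 scale. These 3 higher and 2 lower of 7 stand beside 33.4% and 34.2% of all genes, so the counts do not set the cluster apart. Summed over the list, the cluster had 243.7 to 287.1 CPM in immature and 224.4 to 260.8 CPM in mature libraries, which overlap.

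Trim34a, next to Trim6 at chr7:104244457-104262234, had 15.03, 12.1, 16.8 and 16.95 CPM in immature and 21.9, 24.0, 29.9 and 28.3 CPM in mature Xbp1fl libraries. The Xbp1flIre1fl group had 14.7, 13.1, 17.3 and 16.9 CPM in immature and 30.1, 22.3, 33.3 and 25.2 CPM in mature libraries. No mature library fell into the immature range, and the rise was 1.75-fold (log2 0.81, SE 0.102, adjusted p = 1.71e-06 by edgeR). The gene shares 39.78% of its 50-base exon words with Trim34b, so reads could be split between them, although Trim34b itself had only 26 counts over all libraries. Exons of Trim34a also overlap the antisense gene Gm47248 on the opposite strand over 23.5% of their length. Gm47248 is not in the counts table, and whether counting used strand is not given in the sources used here.

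Trim12a had 22.7, 22.8, 24.6 and 24.8 CPM in immature and 33.3, 33.1, 35.4 and 30.5 CPM in mature Xbp1fl libraries. In Xbp1flIre1fl it had 24.0, 21.8, 25.5 and 23.8 CPM in immature and 31.6, 30.1, 31.7 and 25.0 CPM in mature libraries. Only mature Xbp1flIre1fl replicate 4 reached into the immature range, and the gene rose by 1.32-fold (log2 0.40, SE 0.060, adjusted p = 1.37e-05 by edgeR).

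Its near copy Trim12c, with the same ISRE letters in its window, had 31.5, 40.6, 45.2 and 48.5 CPM in immature and 38.7, 40.4, 42.0 and 35.8 CPM in mature Xbp1fl libraries. The Xbp1flIre1fl libraries had 39.3, 40.0, 39.5 and 40.3 CPM in immature and 42.3, 40.8, 43.6 and 42.2 CPM in mature libraries. The stages overlapped and the log2 fold change was 0.00 (SE 0.069, adjusted p = 0.973 by edgeR); its sign turned with 5 of the 16 libraries left out and under other scalings. Trim12c shares 33.04% of its exon words with other genes (24.24% with Trim5) and Trim12a 10.4%, so reads of both could be split with copies.

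Of the 3 Trim30 genes, Trim30a and Trim30b fell and Trim30d did not pass. Trim30a, an interferon-inducible gene whose product limits Toll-like receptor signalling by removing TAB2 and TAB3, had 142.3, 133.2, 140.7 and 143.7 CPM in immature and 102.9, 94.9, 95.1 and 101.3 CPM in mature Xbp1fl libraries. Its values in Xbp1flIre1fl were 138.8, 147.2, 166.7 and 140.4 CPM in immature and 95.2, 128.5, 108.6 and 111.1 CPM in mature libraries. The mature values were below the immature ones throughout, a 1.38-fold fall (log2 -0.46, SE 0.057, adjusted p = 1.25e-06 by edgeR).

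Trim30b had 10.1, 9.49, 10.3 and 8.56 CPM in immature and 5.61, 4.78, 5.29 and 6.04 CPM in mature Xbp1fl libraries. The Xbp1flIre1fl group had 7.95, 9.19, 8.80 and 9.88 CPM in immature and 5.73, 6.75, 6.25 and 6.56 CPM in mature libraries. The ranges did not overlap, and the 1.58-fold fall was the largest among the members (log2 -0.66, SE 0.085, adjusted p = 1.96e-06 by edgeR).

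Trim30d, which carries the same ISRE match as Trim30a, had 25.0, 25.3, 27.2 and 25.8 CPM in immature and 27.0, 23.3, 27.9 and 24.9 CPM in mature Xbp1fl libraries. In Xbp1flIre1fl it had 21.8, 28.8, 28.8 and 27.6 CPM in immature and 26.7, 23.4, 29.4 and 24.4 CPM in mature libraries. The stages overlapped (log2 -0.02, SE 0.069, adjusted p = 0.78 by edgeR).

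Members with an ISRE match were found among the higher, the lower and the uncalled genes. Of the 8, Trim34a, Trim12a and Trim26 were higher, Trim30a and Trim21 were lower, and Trim12c, Trim30d and Trim2 did not pass, and their median was 0.05 on the log2 scale. Of the 21 members with a promoter in the table and no match, 6 were higher, 8 lower and 7 did not pass, with a median of -0.16. Both sets lie near the shares of all genes, of which 33.4% were higher and 34.2% lower.

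**Figure D3:**
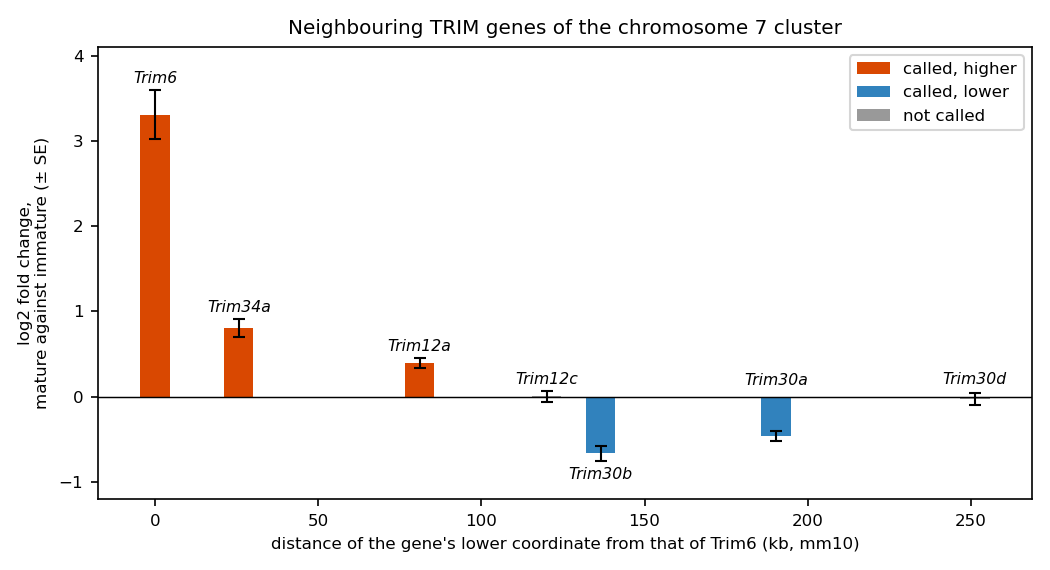
The log2 fold change (y axis, mature against immature, bars are 1 SE) of the 7 TRIM genes of the chromosome 7 cluster against the distance from Trim6 in kb (x axis). Trim6, Trim34a and Trim12a lie above 0, Trim12c and Trim30d at 0, and Trim30b and Trim30a below it, at -0.66 and -0.46.

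Of the members that act in cytosolic and Toll-like sensing, the most abundant was Trim35, a ligase that targets IRF7. It had 600.6, 400.0, 466.7 and 417.8 CPM in immature and 778.1, 548.7, 656.6 and 633.5 CPM in mature Xbp1fl libraries. The Xbp1flIre1fl libraries had 533.1, 517.0, 541.5 and 343.1 CPM in immature and 673.3, 729.7, 622.4 and 425.3 CPM in mature libraries. The stages overlapped, yet in all 8 pairs of equal number and genotype the mature library was higher. The rise was 1.33-fold (log2 0.41, SE 0.127, adjusted p = 0.0098 by edgeR). With the replicate number as a block the adjusted p was 2.4e-06, and within Xbp1flIre1fl it went from 0.121 to 5.29e-04. With library totals in place of TMM the change was 0.18 (adjusted p = 0.173).

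Per kilobase of exon, Trim35 was first in both stages, at 103.4 ± 18.6 CPM per kb (SD, n = 8) in immature and 137.2 ± 23.6 (SD, n = 8) in mature cDC1s. It supplied 21.1% to 31.3% of the summed TRIM CPM in immature libraries and 25.6% to 37.5% in mature ones. In the immature stage Trim8 (36.1 ± 3.79 CPM per kb), Trim30a (35.1 ± 2.43) and Trim28 (34.4 ± 1.56) followed and were not separated from each other by their spread (SD, n = 8), with Trim25 next at 22.3 ± 4.27. In the mature stage Trim8 (44.4 ± 4.75) stood above Trim30a (25.5 ± 2.78) and Trim28 (23.7 ± 2.76), which were close to each other and to Trim25 (19.9 ± 3.75).

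Trim8, whose product interacts with SOCS1, had 143.7, 124.7, 120.6 and 133.1 CPM in immature and 178.5, 168.7, 164.8 and 169.1 CPM in mature Xbp1fl libraries. Its values in Xbp1flIre1fl were 148.7, 146.2, 143.9 and 110.4 CPM in immature and 163.1, 191.6, 142.9 and 137.4 CPM in mature libraries. It was higher in 7 of 8 pairs, and the rise was 1.23-fold (log2 0.30, SE 0.073, adjusted p = 0.0016 by edgeR). The call was kept with each library left out in turn, and lost with library totals in place of TMM (log2 0.07, adjusted p = 0.37). Within Xbp1flIre1fl the adjusted p of Trim8 went from 0.0962 to 0.0196 with the replicate number as a block.

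Trim25, the ligase that activates RIG-I, had 131.5, 115.6, 120.0 and 117.0 CPM in immature and 137.3, 101.6, 106.4 and 101.6 CPM in mature Xbp1fl libraries. The Xbp1flIre1fl group had 171.2, 155.9, 120.3 and 93.8 CPM in immature and 139.5, 141.4, 105.5 and 84.5 CPM in mature libraries. Libraries of the same number kept similar values across the stages, and the mature one was lower in 7 of 8 pairs. The log2 fold change was -0.16 (SE 0.128), which did not pass without the block (adjusted p = 0.289 by edgeR) and passed with it (adjusted p = 0.00514). Within Xbp1flIre1fl its adjusted p went from 0.371 to 0.0161 with the block.

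Trim21, a cytosolic antibody receptor that ubiquitinates antibody-coated virus, showed the same feature. It had 21.7, 27.0, 27.3 and 25.7 CPM in immature and 11.6, 19.1, 19.2 and 19.6 CPM in mature Xbp1fl libraries. In Xbp1flIre1fl it had 21.7, 22.1, 21.1 and 29.2 CPM in immature and 16.5, 15.5, 15.9 and 24.8 CPM in mature libraries. Xbp1flIre1fl replicate 4 was high at both stages, so the stages overlapped, while the mature library was lower in 8 of 8 pairs. The fall was 1.38-fold (log2 -0.46, SE 0.122, adjusted p = 0.00293 by edgeR, and 2.79e-05 with the block). Within Xbp1flIre1fl alone the adjusted p went from 0.0778 to 0.00374 with the block.

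**Figure D4:**
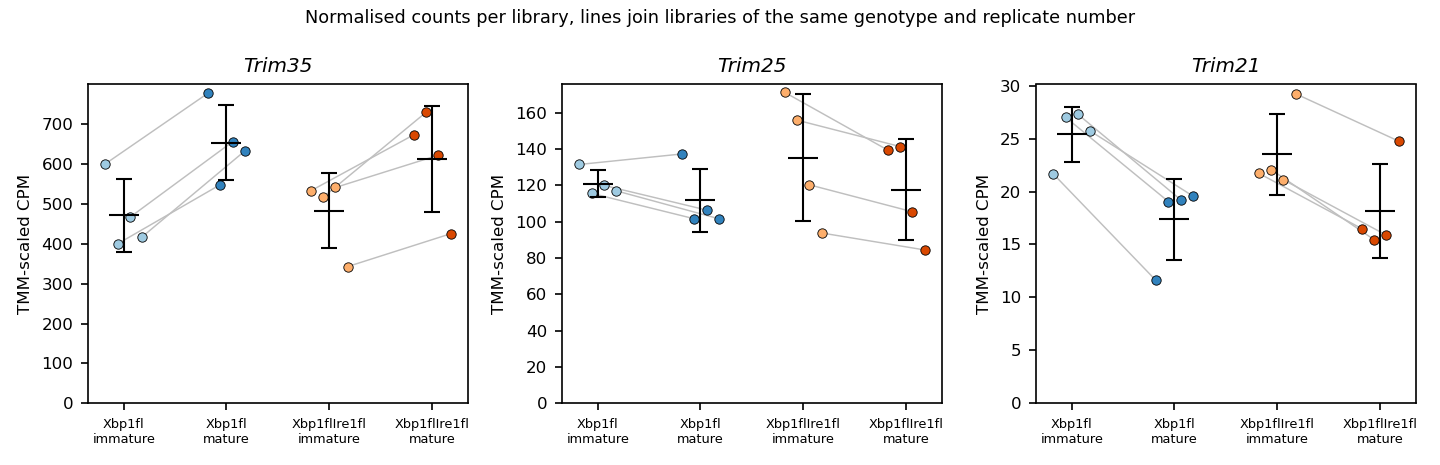
TMM-scaled CPM (y axis, from 0) of Trim35, Trim25 and Trim21 in each of the 16 libraries by genotype and stage (x axis); black bars are the mean ± SD of 4 libraries, grey lines join the same replicate number. The lines rise in 8 of 8 pairs for Trim35, fall in 7 of 8 for Trim25 and fall in 8 of 8 for Trim21, although the stages overlap for each gene.

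Other regulators of innate sensing were found on both sides. Trim56, which ubiquitinates STING, rose from 3.64 ± 0.48 to 6.05 ± 1.30 CPM (SD, n = 8), a 1.66-fold change (log2 0.73, SE 0.130, adjusted p = 7.44e-05 by edgeR). In Trim56 the highest mature library of each genotype was replicate 3, at 7.83 CPM in Xbp1fl and 8.41 CPM in Xbp1flIre1fl, while the other 6 mature libraries lay between 4.97 and 5.55 CPM. Trim62, which ubiquitinates CARD9, rose by 1.41-fold from 14.2 ± 2.11 to 20.1 ± 2.69 CPM (adjusted p = 1.80e-04). Trim27, a ligase of the retromer pathway, fell by 1.19-fold from 112.4 ± 7.38 to 94.4 ± 5.33 CPM with no overlap of the stages (adjusted p = 2.55e-04). Trim26, which targets nuclear IRF3, was called at only 1.06-fold (97.4 ± 3.26 to 103.7 ± 3.65 CPM, adjusted p = 0.0469). The call of Trim26 was lost with the block (adjusted p = 0.068) and with any of 12 single libraries left out, and with library totals in place of TMM its sign turned (log2 -0.13). Trim14, a RING-less adaptor of the RIG-I pathway at mitochondria, had 57.6 ± 3.02 and 61.2 ± 6.48 CPM and did not pass (adjusted p = 0.176). Exons of Trim14 overlap Nans on the opposite strand over 31.26% of their length, and whether counting used strand is not given in the sources used here.

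Among members with NHL repeats, Trim3, an endosome-associated ligase, rose in every mature library from 20.3 ± 2.32 to 32.6 ± 1.59 CPM (log2 0.69, SE 0.066, adjusted p = 6.09e-08 by edgeR). Trim32, a ligase mutated in a muscular dystrophy, had 6.84 ± 1.25 and 5.0 ± 1.74 CPM (log2 -0.45, adjusted p = 0.0456), a call that was lost with any of 12 single libraries left out. Trim2, known as a neurofilament ligase, stayed near 1 CPM in both stages (1.18 ± 0.51 and 1.32 ± 0.58 CPM) and did not pass.

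The 2 members with a membrane helix moved apart. Trim13, an ER-anchored ligase in protein degradation, rose 1.92-fold from 1.17 ± 0.36 to 2.23 ± 0.65 CPM (log2 0.94, SE 0.225, adjusted p = 0.00126 by edgeR). Trim59 fell 1.40-fold from 28.2 ± 3.15 to 20.1 ± 3.25 CPM (log2 -0.49, SE 0.091, adjusted p = 1.30e-04). Trim37, a ligase of peroxisomes and centrioles, was lower in all mature libraries, at 47.3 ± 3.91 against 31.4 ± 3.83 CPM (log2 -0.59, SE 0.072, adjusted p = 1.11e-06). Trim36, the only COS-domain member, which binds microtubules, fell by 0.30 on the log2 scale (22.8 ± 2.12 to 18.5 ± 2.16 CPM, adjusted p = 0.00167).

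Of the remaining called members, Trim44, which lacks a RING and counters ubiquitination, fell from 105.3 ± 7.52 to 87.0 ± 5.98 CPM (adjusted p = 1.98e-04). Trim7, a glycogenin-binding ligase, rose from 12.6 ± 1.43 to 17.3 ± 2.74 CPM (adjusted p = 7.01e-04). Trim16, which takes part in the clearance of damaged lysosomes, was scarce, at 0.73 ± 0.38 and 1.44 ± 0.55 CPM (log2 0.98, SE 0.302, adjusted p = 0.00827). Trim11 and Trim68 were called at adjusted p = 0.0258 and 0.0266, with log2 fold changes of 0.19 and -0.40, and each lost the call with any of 4 single libraries left out. The members that did not pass were Trim10, Trim47, Trim2, Trim23, Trim14, Trim12c, Trim39, Trim30d, Trim65, Trim25, Trim41 and Trim45. Of these Trim10, Trim47, Trim2 and Trim45 had under 2 CPM on average in each stage, and their SEs ran from 0.20 to 0.73 on the log2 scale.

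Both genotypes were then compared. Within Xbp1fl 12 members were called higher and 8 lower (28.4% and 28.3% of all genes, 56.8% together), and within Xbp1flIre1fl 11 and 8 (27.4% and 26.1%, 53.5% together). These 2 contrasts share no libraries, but they come from 1 fit in which all 16 libraries share the estimate of spread. Their calls are therefore not fully independent. There were 16 members called in both, each with the same sign, which is 80.0% of the Xbp1fl calls and 84.2% of the Xbp1flIre1fl calls. Over all genes 5612 were called in both, 82.6% and 87.6% of the calls, so the members' shares lie near those of all genes. The sign was the same for 34 of 38 members (89.5%, against 89.2% of all genes). Pearson's r of the log2 fold changes across the 38 genes, which are not independent replicates, was 0.82, and 0.69 over the 37 without Trim6. Over all genes r was 0.94, but r depends on the range of the changes. On the mean of genotypes 12.3% of all genes rose by over 2-fold, and of the members only Trim6 and Trim24. The lower r therefore does not show weaker agreement among the members. Within Xbp1fl Trim6 (3.90), Trim24 (1.39) and Trim16 (1.37) were called at over 2-fold, where 12.2% of all genes rose and 2.24% fell by that much. Within Xbp1flIre1fl these were Trim6 (2.72), Trim24 (1.20) and Trim13 (1.13), with 12.1% and 1.24% of all genes.

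The difference of the stage changes between genotypes was tested as an interaction, and edgeR called no member and no gene (0 of 11978, 0%). DESeq2 called no member either. With edgeR's p left unadjusted, 2 of the 38 members, Trim2 and Trim14, were under 0.05, beside 329 of all 11978 genes. Both had an adjusted p of 1. The log2 fold changes were 0.83 within Xbp1fl and -0.60 within Xbp1flIre1fl for Trim2, and -0.04 and 0.21 for Trim14. For Trim6 the difference was -1.18 (SE 0.582), which did not pass, so its larger change within Xbp1fl is not shown to differ.

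**Figure D5:**
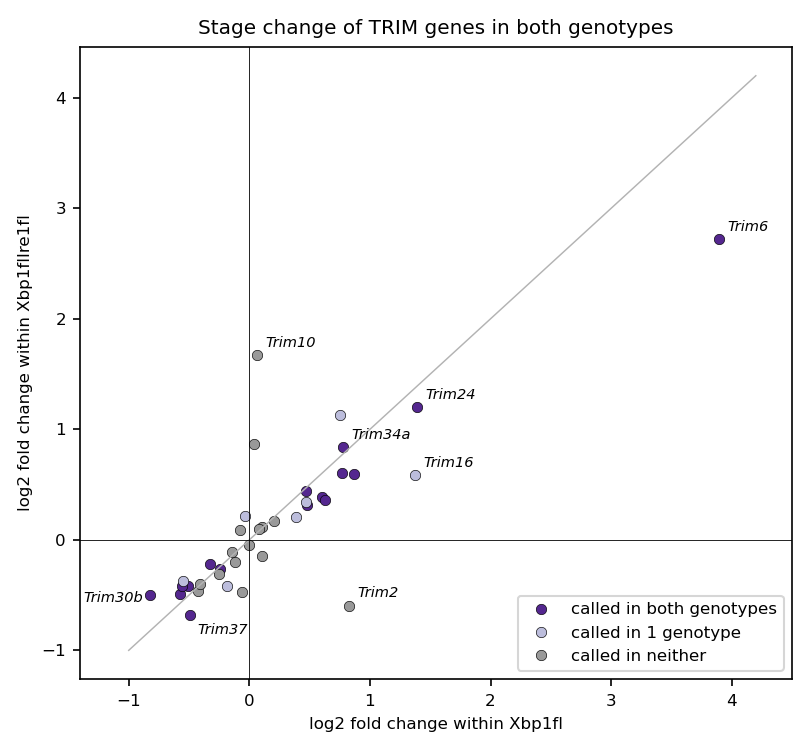
The log2 fold change between stages within Xbp1fl (x axis) and within Xbp1flIre1fl (y axis) for the 38 TRIM genes; the grey line marks equal values and colour shows in how many genotypes the gene was called. The 16 genes called in both have the same sign on both axes, and Trim10 and Trim2, far from the line, were called in neither.

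Between genotypes at the same stage no member was called by edgeR or DESeq2, where edgeR called 0.134% of all genes in immature and 0.142% in mature cDC1s. These 16 and 17 genes were 40 and 36 by DESeq2. In mature cells the 17 became 30 without mature Xbp1flIre1fl replicate 2 and 153 without mature replicates 2 and 4 of that genotype, while the members called stayed at 0. With edgeR's p left unadjusted, 2 of the 38 members were under 0.05 in immature cells, Trim10 and Trim6, beside 573 of all 11978 genes. In mature cells there were 3, Trim10, Trim2 and Trim30a, beside 754 of all 11978 genes. The lowest adjusted p over the members was 0.567 in immature and 0.725 in mature cells. The log2 difference was within 0.3 of 0 for 34 of the 38 members in immature and 33 in mature cells, which describes these estimates and does not show that the genotypes are alike. Trim10, a ligase of erythroid differentiation, had 14, 13, 2 and 16 counts in the immature Xbp1fl libraries and 1, 0, 1 and 1 counts in the immature Xbp1flIre1fl ones. In the mature stage Trim10 had 20, 1, 3 and 13 counts in Xbp1fl and 5, 0, 3 and 1 in Xbp1flIre1fl. Its Xbp1flIre1fl values lie mostly at or under the 3-count limit, and no fold is given.

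The partners that TRIM ligases work with were described from lists of known roles, and each count is to be read against the 33.4% of all genes called higher, the 34.2% called lower and their median of -0.01. Of 30 E2 conjugating enzymes, which hand ubiquitin to the ligases, 18 were higher in mature cDC1s, 6 lower and 6 did not pass, and the median was 0.16 on the log2 scale. The smallest adjusted p belonged to Ube2z, which takes ubiquitin from UBA6 (96.7 ± 4.32 to 264.8 ± 38.5 CPM, SD, n = 8, log2 1.45, adjusted p = 3.47e-11 by edgeR). Next came Ube2l6, the E2 of the ISG15 system (39.1 ± 3.60 to 244.9 ± 50.03 CPM, log2 2.65, adjusted p = 3.69e-11), and Ube2h (69.5 ± 5.35 to 114.9 ± 11.2 CPM, log2 0.73, adjusted p = 1.3e-08). Of the 9 E1, ubiquitin and ISG15 system genes 6 were higher, 1 lower and 2 did not pass (median 0.49, where 67.6% of all genes were called). Uba7, the E1 of ISG15, rose by 1.40 and Herc6, its main mouse ligase, by 1.65 on the log2 scale (adjusted p = 1.78e-10 and 3.2e-08 by edgeR).

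Of 18 RIG-I, STING and TRIF signalling partners, 11 were higher, 5 lower and 2 did not pass (the median on the log2 scale was 0.28), beside 33.4% higher and 34.2% lower of all genes. Tank, a TBK1-binding adaptor, rose by 2.49, Traf6 by 1.20 and Traf3 by 1.38 on the log2 scale, with adjusted p = 1.01e-10, 4.17e-10 and 2.15e-09 by edgeR. Of 13 KAP1 silencing partners 5 were higher, 5 lower and 3 did not pass (median -0.09), near the shares of all genes. Among them Atf7ip, the SETDB1 cofactor, rose by 1.23 on the log2 scale while Morc3 and Cbx5, which encodes HP1 alpha, fell by 0.48 and 0.67 (adjusted p = 1.73e-08, 5.96e-06 and 6.04e-06 by edgeR). A link to the fall of Trim28 was not tested.

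Of 10 SMAD pathway genes linked to TRIM33, 6 were higher, 2 lower and 2 did not pass (median 0.55), beside the same 33.4% and 34.2% of all genes. The receptor Tgfbr1 (log2 0.85), Smad3 (1.12) and Smad4 (0.78) rose with adjusted p = 1.3e-09, 3.15e-09 and 6.23e-09 by edgeR, while Smad5 and Ski were the 2 lower genes. A link to the rise of Trim33 was not tested. Of 7 interferon response factors of transcription 3 were higher, 3 lower and 1 did not pass (median 0.10), where 33.4% and 34.2% of all genes did so. Irf1 rose from 75.8 ± 27.2 to 486.3 ± 101.2 CPM (log2 2.69, adjusted p = 3.8e-08), Irf2 rose by 0.28 and Irf8, the lineage factor of cDC1s, fell by 0.40 on the log2 scale (adjusted p = 4.56e-05 and 9.56e-05). Of the 4 tested TRIM genes that go by other symbols, the microtubule ligase Mid1 (log2 1.18, adjusted p = 4.78e-04) and the nuclear body gene Pml (0.22, adjusted p = 0.041) were higher, the pyrin gene Mefv was lower (-0.44, adjusted p = 0.0183), and 1 did not pass.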

How the data were processed

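The authors deposited raw counts per gene symbol and a table of normalized log2 values, whose normalization is not given in the sources used here. Per the submitters' processing notes, the build was mm10 and the tools included TopHat2 2.1.0, limma 3.42.2, Trimmomatic 0.35, SAMtools 0.1.19 and FastQC 0.11.4. The read counter, annotation and strandedness are not given in the sources used here.

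The deposited counts were fitted with edgeR 4.0.16 in R 4.3.3 (TMM, filterByExpr, robust quasi-likelihood, 1 mean for each of 4 groups, Benjamini-Hochberg over 11978 genes). SE is the log2 fold change over the root of F. On simulated counts for the stage comparison, over 11978 genes, 175 of 200 changed genes were recovered with 10 false calls among 11778. In the deposited counts 67.6% of the genes tested were called between the stages. Recovery and false calls with so large a share of genes changed was not tested. Alternatives were DESeq2 1.42.0, limma-trend (3.58.1) on the deposited log2 table, other scalings, no filter, no robust estimation, a 2-fold threshold, a replicate block, and fewer libraries. Exon lengths and coordinates come from GENCODE M21 (GRCm38, that is mm10).

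The labels give each library a replicate number but do not say that these are mice, so the p-values speak of library-to-library spread, which may be technical. Same-numbered mature and immature libraries deviated together (r 0.29 to 0.604 over 7881 genes, all 8 pairs), where other numbers of a genotype gave -0.407 to 0.243. The numbers were therefore taken to pair the stages. The main fit, from which the calls come unless a block is named, does not use this pairing. Only the replicate block does. Between genotypes r was of both signs (-0.185 to 0.382), and the highest, for mature replicate 2, lay within the range of the stage pairs. No 2 libraries of a group agreed within sampling noise (chi-square per degree of freedom 5.33 to 59.3 over 24 pairs).

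Members and gene lists were chosen with earlier results of these data known. Given for every library are members past 2-fold, the 5 highest per exon length, the chromosome 7 cluster and the PHD and bromodomain genes, and Trim21 and Trim10, which were added after their values were seen. Of each partner list, the 3 genes with the smallest adjusted p are named, except 1 gene that is not reported here. A planned description of protein features was not run.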

Additional observations from a re-analysis of the deposited data

Results flagged for a closer look

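In 152 groups of 4 libraries (38 genes, 4 groups), 16 had a library whose gap to the nearest other was past Dixon's critical share of the group's range. Chance flags about 1 in 20 groups of independent, normally distributed values. The 38 genes share the same 16 libraries, so these flags are not independent. Their number is therefore not read as an excess. All values are CPM.

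In Xbp1flIre1fl, replicate 4 stood apart in several genes. Among the immature libraries it was lowest in Trim35 (343.1, others 517.0 to 541.5) and Trim8 (110.4, others 143.9 to 148.7) and highest in Trim21 (29.23, others 21.11 to 22.08). Among the mature ones it was highest in Trim21 (24.77, others 15.47 to 16.51) and Trim59 (26.41, others 17.05 to 18.46).

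In Trim56, mature replicate 3 was highest in both Xbp1fl (7.831, others 5.223 to 5.553) and Xbp1flIre1fl (8.409, others 4.973 to 5.547). Mature Xbp1fl replicate 1 was lowest in Trim21 (11.6, others 19.06 to 19.57) and Trim3 (30.65, others 33.87 to 34.5), and highest in Trim25 (137.3, others 101.6 to 106.4). Mature Xbp1flIre1fl replicate 1 was highest in Trim13 (3.504, others 1.765 to 2.044).

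Immature Xbp1flIre1fl replicate 1 was lowest in Trim30d (21.79, others 27.62 to 28.76) and Trim39 (8.008, others 10.12 to 10.32). Immature Xbp1flIre1fl replicate 2 was lowest in Trim41 (5.829, others 6.518 to 6.616) and in Trim10 (0, others 0.0558 to 0.0621, which is 1 count each). Immature Xbp1fl replicate 3 was lowest in Trim10 (0.1142, others 0.7569 to 0.8609).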

How the results depend on the processing

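Over 25 refits, 20 of the 26 called members kept direction and call, and Trim11, Trim26, Trim32, Trim35, Trim68 and Trim8 did not. The replicate block gave 14 higher and 12 lower members, 12 and 8 within Xbp1fl and 13 and 10 within Xbp1flIre1fl. Over all 11978 genes the block gave 4099 higher and 4248 lower on the mean of genotypes. In either direction it called 7096 genes within Xbp1fl and 6788 within Xbp1flIre1fl. With the block Trim25 gained the call (adjusted p = 0.00514) and Trim26 lost it (0.068) on the mean of genotypes. Requiring over 2-fold left 2 higher and 0 lower, and within each genotype 3 and 0.

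With library totals only, 11 were higher and 18 lower (16 lower within Xbp1fl; 5 higher and 14 lower within Xbp1flIre1fl), and the signs turned for Trim11 (-0.0378), Trim12c (-0.22), Trim14 (-0.14), Trim2 (-0.11), Trim23 (-0.11) and Trim26 (-0.13, adjusted p = 0.0122). Upper quartile scaling gave 13 and 13, 7 higher within Xbp1flIre1fl, and turned Trim12c (-0.12), Trim14 (-0.0326), Trim2 (-0.0025), Trim23 (-0.0086) and Trim26 (-0.0306). Over all 11978 genes, library totals gave 2716 higher and 6091 lower, and upper quartile scaling 3213 and 5237, beside 3995 and 4100 with TMM. These scalings moved the median of all genes to -0.23 and -0.13. Without a filter Trim12c was -0.0145. With DESeq2's size factors Trim32 lost the call (adjusted p = 0.0509).

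With 1 library left out in turn, the members called higher within Xbp1flIre1fl ranged from 7 to 11, the lowest without mature Xbp1flIre1fl replicate 3. Without that library 5493 of all genes were called in either direction within Xbp1flIre1fl, beside 6406 with all libraries. Over the refits with 1 library left out, the log2 fold changes ranged from -0.0524 to 0.045 for Trim12c, -0.0196 to 0.2373 for Trim2 and -0.0805 to 0.0596 for Trim39. Where the call was lost, adjusted p ranged from 0.0538 to 0.0594 for Trim11 (without Xbp1fl mature 1, immature 1 or immature 3, or Xbp1flIre1fl mature 1) and 0.053 to 0.0648 for Trim68 (without Xbp1fl mature 3 or immature 2, or Xbp1flIre1fl mature 3 or immature 4). For Trim26 it was 0.0515 to 0.0945 without any library but Xbp1fl mature 2 and Xbp1flIre1fl mature 4, immature 1 and immature 4, and for Trim32 0.0517 to 0.0883 without any but Xbp1fl mature 3 and immature 1 and Xbp1flIre1fl mature 4 and immature 1. Trim41 gained the call (0.0343) without Xbp1fl immature 1. Without mature Xbp1flIre1fl replicates 2 and 4, 14 members were higher and 12 lower, beside 4112 and 4230 of all genes, and Trim30d (0.0321) and Trim39 (0.0002) turned. The causes were not tested. Under 3 counts a library gives no level, which limits Trim10 most.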
